A study of Mus musculus with 24 samples.

Results

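The genes described here are 10 transcription regulators that set the cell lineages of the mammary epithelium: Elf5, Ehf, Tfap2c, Cebpb, Nfib, Id2, Sox9, Sox10, Gata3 and Foxa1. They were chosen by name, and every non-control probe that the array's annotation assigns to one of them was taken, which gave 18 of 56605 non-control probes. All 18 probes were among the 35117 that passed the filter on dim probes, and all 10 genes were among the 22382 genes tested. RNA of the inguinal mammary gland, with its lymph node taken out, was hybridised to 1-colour Agilent arrays, 1 array for each of 24 C57BL/6 females. The groups were 5 mice homozygous for the R96C knock-in of Socs2 at day 18 of pregnancy, 5 wild-type mice at day 18 of pregnancy, 7 homozygous knock-in virgins aged 8 weeks and 7 wild-type virgins aged 8 weeks. SOCS2 restrains signalling downstream of the growth hormone and prolactin receptors, and the substitution lies in its SH2 domain, which binds phosphotyrosine. The labels do not state how old the day-18 mice were, so pregnancy and age cannot be told apart.

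The mammary duct has an outer basal layer of contractile myoepithelial cells and an inner luminal layer, and the luminal layer holds hormone-sensing cells, which carry oestrogen and progesterone receptors, beside progenitors that give rise to the milk-making alveolar cells. During pregnancy, prolactin acting through STAT5 and progesterone acting through RANK ligand expand the alveoli at the expense of the surrounding fat. The transcription factors divide along these lines: ELF5 and, as coregulators of milk genes, C/EBPβ and NFIB act in the alveolar branch, FOXA1 acts in hormone-sensing cells, GATA3 and TFAP2C act in luminal cells, and SOX9 and SOX10 mark progenitor and basal states.

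Values are log2 signals relative to the 75th percentile of the same array (hereafter levels), and each gene is represented by its brightest probe unless stated. The limma fit ran over all 22382 genes, with calls made below an adjusted p of 0.05. None of the 18 probes was saturated on any array. Between 33374 and 57003 of the 59305 non-control spots of an array were well above background. The highest count came from virgin knock-in mouse 376, whose negative-control signal was 332, against 19.4 to 41.4 on the other 23 arrays. The virgin knock-in mouse 198 had the lowest mean level of 10 pan-epithelial markers, -3.51, and the highest mean level of 8 skeletal muscle markers, 7.44. The arrays lay on 3 slides of 8, each with all 4 groups. Socs2 itself was not called in any comparison: its difference was 0.04 ± 0.42 between knock-in and wild-type glands at day 18 and -0.59 ± 0.35 between knock-in and wild-type virgins (log2 ± SE; adjusted p = 1.000 and 0.711), and a probe of the array does not read a substitution in the coding sequence.

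The first comparison asked how the regulators differed between late-pregnant and virgin glands of each genotype. In knock-in glands, 9 of the 10 regulators rose at day 18 and Foxa1 fell, against a background of 43.1% of all genes called, 22.6% higher and 20.4% lower. In wild-type glands 8 rose, Foxa1 fell and Gata3 was not called, against 41.9% of all genes called, 21.0% higher and 20.8% lower. The median difference of the 10 regulators was 3.05 in knock-in and 2.33 in wild-type glands on the log2 scale, against 0.04 and 0.02 for all genes. Elf5 stood at the top of the 10 in both genotypes, and Foxa1 was the sole member that was lower. The day-18 and virgin groups did not overlap for 8 of the 10 in knock-in glands (20.0% of all genes did not overlap) and for 10 of 10 in wild-type glands (39.3% of all genes). These are bulk glands, in which more cells of a type and more RNA per cell cannot be told apart.

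**Figure D1:**
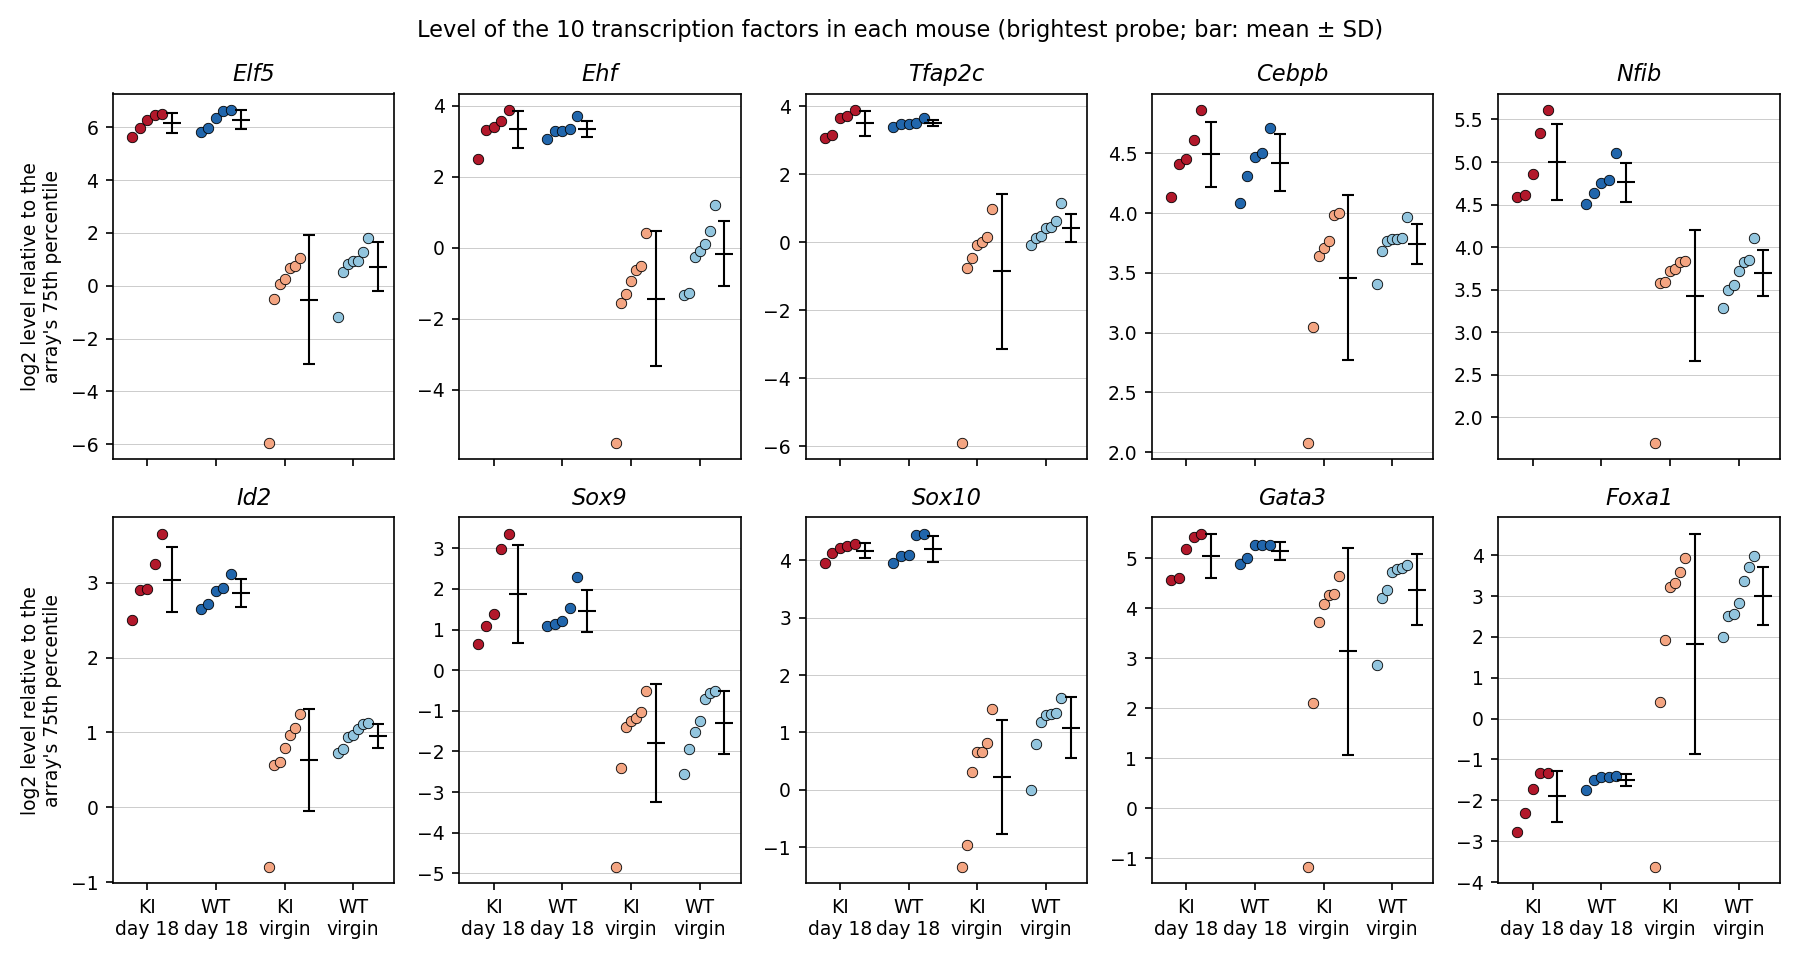
Level of each of the 10 regulators in every mouse (vertical axis, log2 signal relative to the array's 75th percentile), with day-18 groups left of virgin groups and knock-in left of wild type within a stage; points are single mice, sorted by value within a group, and bars are group means ± SD. For 8 regulators all day-18 mice of both genotypes lie above all virgin mice of their genotype, Foxa1 is lower at day 18, and a few virgin knock-in mice, above all mouse 198, lie far below their group; with arrays scaled to pan-epithelial markers the stage differences of Cebpb, Nfib and Gata3 have the opposite sign, and with spike-in scaling so do those of Cebpb and Gata3 in wild-type glands.

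The plot of levels by mouse shows 2 features that the following paragraphs take gene by gene: day-18 groups of the 2 genotypes that overlap for every regulator, and virgin knock-in groups with single mice far below the rest.

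Elf5 and Ehf are ETS-family factors of epithelial cells that lie close together on mouse chromosome 2, with their probes between 171209 and 186633 bp apart (mm9) and no protein-coding gene annotated between them. ELF5 drives alveolar differentiation and milk-gene expression. Its main probe lies at chr2:103290958-103291017 (mm9, plus strand). Elf5 had levels of 5.64, 5.96, 6.28, 6.46 and 6.52 in day-18 knock-in glands, against a lowest, median and highest level of -5.94, 0.27 and 1.04 in virgin knock-in glands. Every day-18 value lay above every virgin value, and the lowest virgin value, from mouse 198, was far below the next one of -0.50. Elf5 rose by 6.69 ± 0.80 (SE), or 103-fold, in knock-in glands (95% interval 5.04 to 8.34, adjusted p = 5.78e-07). Without mouse 198 the difference was 5.79 (adjusted p = 1.26e-10). In wild-type glands Elf5 had levels of 5.84, 5.99, 6.35, 6.62 and 6.64 at day 18, against -1.20, 0.92 and 1.80 (lowest, median and highest) in virgins. Those groups were apart as well, and the difference was 5.56 ± 0.80, or 47.2-fold (95% interval 3.91 to 7.21, adjusted p = 7.36e-06). Among all 22382 genes this was the 54th highest increase in knock-in and the 110th highest in wild-type glands.

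The Elf5 promoters are shown because this gene changed most among the 10 and because several of the other regulators belong to families whose motifs can be looked for in them. RefSeq (GRCm38.p6) gave 2 start sites for Elf5, and the 250 bases before each are printed 5′ to 3′ with matches to the motifs searched in capitals. In promoter 1 (chr2:103411848-103412097, plus strand) the capitals mark an ETS core, GGAAG, at -103 to -99 and a C/EBP-type TTGCNNAA match at -235 to -228 from the start site. In promoter 2 (chr2:103423818-103424067, plus strand) they mark a GATA core on the reverse strand, TTATC, at -206 to -202 and a C/EBP-type match at -241 to -234.
Elf5 promoter 1: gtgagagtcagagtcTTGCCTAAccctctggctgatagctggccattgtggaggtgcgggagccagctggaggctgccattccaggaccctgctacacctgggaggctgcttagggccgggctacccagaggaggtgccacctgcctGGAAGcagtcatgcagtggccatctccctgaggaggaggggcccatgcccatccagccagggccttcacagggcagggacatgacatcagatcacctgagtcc
Elf5 promoter 2: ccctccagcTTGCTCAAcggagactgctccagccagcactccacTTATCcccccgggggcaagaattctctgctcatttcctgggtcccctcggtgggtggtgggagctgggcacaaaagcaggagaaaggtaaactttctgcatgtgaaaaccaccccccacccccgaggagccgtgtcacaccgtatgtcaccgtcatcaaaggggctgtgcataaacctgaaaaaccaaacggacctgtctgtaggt
Of 32851 promoters of this length, on either strand, GGAAG (ETS) was in 64.1%, GATAA (GATA) in 22.6%, TTGCNNAA (C/EBP) in 9.56%, TGTTTAC (forkhead) in 3.17%, ACAAAG (SOX) in 16.5%, GCCNNNGGC (AP-2) in 13.7% and TTCNNNGAA (STAT) in 7.02%. The forkhead and SOX motifs can overlap, as the Foxa1 promoter below shows. Promoters of 5 of the 10 members were in the table used, and none of their 6 windows held TTCNNNGAA. A match is a string of letters and was not tested for binding.

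Ehf, also called ESE-3, is expressed in glandular epithelia, and its main probe lies at chr2:103105140-103105199 (mm9, minus strand). Ehf had levels of 2.50, 3.31, 3.40, 3.58 and 3.88 in day-18 knock-in glands, against -5.50, -0.94 and 0.41 (lowest, median and highest) in virgin knock-in glands. The groups did not overlap, and the difference was 4.77 ± 0.65, or 27.3-fold (adjusted p = 3.47e-06). In wild-type glands Ehf had levels of 3.07, 3.29, 3.29, 3.36 and 3.71 at day 18, against -1.33, -0.09 and 1.20 in virgins. Again all day-18 mice lay above all virgins, and the difference was 3.51 ± 0.65, or 11.4-fold (adjusted p = 1.43e-04). Among the 10, Ehf had the highest increase after Elf5 in both genotypes.

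Tfap2c encodes AP-2γ, a luminal factor that in human breast cells acts with the oestrogen receptor, and its main probe lies at chr2:172383860-172383919 (mm9, plus strand). Tfap2c had levels of 3.06, 3.17, 3.66, 3.72 and 3.89 in day-18 knock-in glands, against -5.90, -0.08 and 0.99 in virgin knock-in glands. All 5 day-18 mice were above all 7 virgins, with mouse 198 again lowest, and Tfap2c rose by 4.36 ± 0.71, or 20.6-fold (adjusted p = 2.94e-05). In wild-type glands its levels were 3.40, 3.47, 3.49, 3.50 and 3.66 at day 18, against -0.08, 0.42 and 1.17 in virgins. These groups did not overlap either, and the difference was 3.09 ± 0.71, or 8.49-fold (adjusted p = 0.0011). Without mouse 198 the knock-in differences of Ehf and Tfap2c were 4.09 and 3.52.

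Cebpb, Nfib and Id2 showed smaller increases than Elf5, Ehf and Tfap2c. The main probes of Cebpb, Nfib and Id2 were well above background in all virgins, as were those of Sox9, Sox10, Gata3 and Foxa1. Those of Elf5, Ehf and Tfap2c were so in all wild-type and in 6 of 7 knock-in virgins. Cebpb encodes C/EBPβ, which is needed for ductal branching and alveolar development (probe at chr2:167515828-167515887, mm9, plus strand). Cebpb had levels of 4.13, 4.41, 4.45, 4.61 and 4.86 in day-18 knock-in glands, against 2.08, 3.71 and 4.00 in virgin knock-in glands. The groups were apart by a narrow margin, with mouse 376 far below the rest, and Cebpb rose by 1.03 ± 0.25, or 2.04-fold (adjusted p = 0.0016). Wild-type glands had Cebpb levels of 4.08, 4.31, 4.47, 4.50 and 4.71 at day 18, against 3.41, 3.78 and 3.97 in virgins. The wild-type groups did not overlap, and the difference of 0.67 ± 0.25, or 1.60-fold, had an adjusted p of 0.031. This call was made under 29 of 38 alternative settings, and was lost with median scaling (adjusted p = 0.290), with no filter (0.063) and without any 1 of mice 317, 234, 233 and 206 (0.058 to 0.083), among others.

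Nfib encodes a nuclear factor I protein that binds with STAT5 at milk genes in mouse (main probe at chr4:81941988-81942047, mm9, minus strand). Nfib had levels of 4.59, 4.61, 4.86, 5.34 and 5.61 in day-18 knock-in glands, against 1.70, 3.72 and 3.84 in virgin knock-in glands. No value overlapped, and Nfib rose by 1.57 ± 0.29, or 2.97-fold (adjusted p = 1.21e-04), with mouse 376 lowest among the virgins. Wild-type glands had Nfib levels of 4.51, 4.63, 4.75, 4.79 and 5.11 at day 18, against 3.28, 3.72 and 4.11 in virgins. This difference was 1.07 ± 0.29, or 2.10-fold (adjusted p = 0.0044), again without overlap.

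Id2 encodes a helix-loop-helix protein without a DNA-binding domain, which blocks basic helix-loop-helix factors and is needed for alveolar growth in mouse (main probe at chr12:25778904-25778963, mm9, minus strand). Id2 had levels of 2.50, 2.90, 2.91, 3.25 and 3.65 in day-18 knock-in glands, against -0.79, 0.79 and 1.24 in virgin knock-in glands. Every day-18 mouse was above every virgin, and Id2 rose by 2.41 ± 0.25, or 5.30-fold (adjusted p = 1.15e-07). Wild-type glands had Id2 levels of 2.65, 2.71, 2.89, 2.93 and 3.12 at day 18, against 0.72, 0.97 and 1.13 in virgins, and the difference was 1.90 ± 0.25, or 3.74-fold (adjusted p = 2.92e-06). The 7 wild-type virgins were close together, and the spread in virgin knock-in glands came mainly from mouse 376.

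Sox9 and Sox10 belong to the SoxE group, which marks progenitor and basal states of the gland and, outside it, cartilage and neural crest. The main probe of Sox9 lies at chr11:112647560-112647619 (mm9, plus strand). Sox9 had levels of 0.64, 1.08, 1.37, 2.98 and 3.35 in day-18 knock-in glands, against -4.83, -1.25 and -0.50 in virgin knock-in glands. The day-18 knock-in values spread widely, with 2 mice near 3, yet all lay above the virgins, and Sox9 rose by 3.68 ± 0.59, or 12.9-fold (adjusted p = 2.68e-05). In wild-type glands Sox9 had levels of 1.08, 1.13, 1.22, 1.54 and 2.30 at day 18, against -2.55, -1.25 and -0.52 in virgins. The groups did not overlap, and the difference was 2.75 ± 0.59, or 6.72-fold (adjusted p = 6.43e-04).

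Sox10 had levels of 3.96, 4.12, 4.21, 4.25 and 4.28 in day-18 knock-in glands, against -1.34, 0.65 and 1.41 in virgin knock-in glands (probe at chr15:78985343-78985402, mm9, minus strand). The day-18 group was tight and wholly above the virgins, and Sox10 rose by 3.95 ± 0.36, or 15.4-fold (adjusted p = 1.20e-08). In wild-type glands its levels were 3.96, 4.07, 4.10, 4.44 and 4.46 at day 18, against 0.00, 1.31 and 1.60 in virgins. That difference was 3.13 ± 0.36, or 8.74-fold (adjusted p = 3.46e-07), with no overlap. Sox10 also marks Schwann cells, the myelin-forming cells of nerves. Of 9 Schwann cell markers tested of 10 listed, 1 rose and 4 fell in knock-in glands and 0 rose and 5 fell in wild-type glands, with median differences of -0.98 and -1.84. Their mean level per gland was -0.57 to 0.25 in day-18 knock-in and -1.16 to -0.05 in day-18 wild-type glands, against 0.34 to 1.48 in virgin knock-in and 0.18 to 1.37 in virgin wild-type glands, and 1 of the 10 was above background on no day-18 knock-in array. Among them the glial protein S100b fell by 2.88 in knock-in and by 3.37 in wild-type glands, while the myelin protein Mbp rose by 0.63 (adjusted p = 0.036) in knock-in glands, a sign that turned under scaling to spike-ins or to pan-epithelial markers. Their part in the Sox10 difference was not tested.

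Gata3 and Foxa1, which both act in luminal cells, went in different directions. GATA3 maintains luminal identity, and it also marks T helper cells and innate lymphoid cells (probe at chr2:9779495-9779554, mm9, minus strand). Gata3 had levels of 4.57, 4.60, 5.18, 5.43 and 5.49 in day-18 knock-in glands, against -1.17, 4.08 and 4.65 in virgin knock-in glands. The groups overlapped, because virgin mouse 196 reached 4.65, and mouse 198 was far below the others. Gata3 rose by 1.92 ± 0.67, or 3.77-fold (95% interval 0.53 to 3.30, adjusted p = 0.024), and without mouse 198 the difference was 1.20 (adjusted p = 0.014). The call was made under 30 of 38 alternative settings, and was lost among others with quantile normalisation (adjusted p = 0.081), spike-in scaling (0.156), a fit of the 2 groups alone (0.109) and without mouse 210 (0.056) or 239 (0.055). In wild-type glands its levels were 4.89, 5.00, 5.26, 5.27 and 5.27 at day 18, against 2.87, 4.72 and 4.87 in virgins. The wild-type values did not overlap, and their difference of 0.76 ± 0.67 was not called (95% interval -0.62 to 2.15, adjusted p = 0.389). An exact two-sided permutation test over the 12 wild-type mice gave p = 0.0164, unadjusted.

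T cells and innate lymphoid cells also express Gata3 and Id2. Of 9 of their markers tested of 10 listed, 2 rose and 2 fell in knock-in glands and 5 rose and 2 fell in wild-type glands, with median differences of 0.62 and 0.53. Their mean level per gland was -0.82 to -0.37 in day-18 knock-in and -0.98 to -0.54 in day-18 wild-type glands, against -1.32 to 0.06 in virgin knock-in and -1.24 to -0.75 in virgin wild-type glands, and every one of the 10 was above background on some array of each group. Lck, a T cell kinase, and Cd3e, a subunit of the T cell receptor complex, rose by 0.82 and 0.68 in knock-in glands and turned to the other sign under scaling to spike-ins or to pan-epithelial markers, whereas Il1rl1 and Thy1 fell by 2.05 and by 1.44. In wild-type glands Cd8a and Cd3g rose by 1.63 and 1.25, and Il1rl1 and Thy1 fell by 1.80 and by 1.67; the calls of Cd3d, Cd3e and Cd4 there turned to the other sign on the pan-epithelial scale. Their part in the differences of Gata3 and Id2 was not tested. Macrophages express Cebpb and Id2, and of 8 macrophage markers 0 rose and 7 fell in each genotype, among them the scavenger receptors Mrc1, which fell by 2.08 and by 2.15, and Cd163, which was 4.01-fold and 4.25-fold lower (knock-in and wild type). Macrophage markers had a mean level of 1.91 to 3.05 in day-18 knock-in and 1.97 to 2.82 in day-18 wild-type glands, against 2.44 to 4.53 in virgin knock-in and 3.17 to 4.40 in virgin wild-type glands, and all 8 were above background on some array of each group. Their part in the differences of Cebpb and Id2 was not tested.

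FOXA1 is a forkhead factor that opens chromatin for the oestrogen receptor in hormone-sensing cells, and its probe lies at chr12:58641764-58641823 (mm9, minus strand). Foxa1 had levels of -2.77, -2.32, -1.73, -1.34 and -1.33 in day-18 knock-in glands, against -3.62, 3.23 and 3.92 in virgin knock-in glands. The day-18 mice lay below every virgin other than mouse 198, since the next lowest virgin was mouse 376 at 0.41. Foxa1 fell by 3.72 ± 0.85, which is 13.2-fold (adjusted p = 0.0011), and by 4.63 without mouse 198 (adjusted p = 1.34e-07). In wild-type glands its levels were -1.75, -1.51, -1.44, -1.42 and -1.40 at day 18, against 2.01, 2.82 and 3.97 in virgins. Here the groups did not overlap, and Foxa1 fell by 4.50 ± 0.85, which is 22.6-fold (adjusted p = 1.79e-04). It was the 45th largest decrease of 22382 genes in knock-in and the 28th in wild-type glands.

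The Foxa1 promoter is shown as that of the one regulator that fell. It is at chr12:57546112-57546361 (GRCm38.p6, minus strand), from RefSeq, and the capitals mark a forkhead motif on the reverse strand, GTAAACA, at -141 to -135, and SOX motifs at -145 to -140, -137 to -132 and -8 to -3, of which the first and second overlap the forkhead match.
Foxa1 promoter: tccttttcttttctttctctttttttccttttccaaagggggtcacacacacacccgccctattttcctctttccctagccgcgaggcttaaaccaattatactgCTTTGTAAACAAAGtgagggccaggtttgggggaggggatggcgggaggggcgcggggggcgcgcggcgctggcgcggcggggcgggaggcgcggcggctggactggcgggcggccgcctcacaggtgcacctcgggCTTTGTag
The Gata3 promoter held 3 GCCNNNGGC matches and that of Cebpb 1 GGAAG match, while that of Id2 held GGAAG on both strands; for Ehf, Tfap2c, Nfib, Sox9 and Sox10 no promoter is shown.

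**Figure D2:**
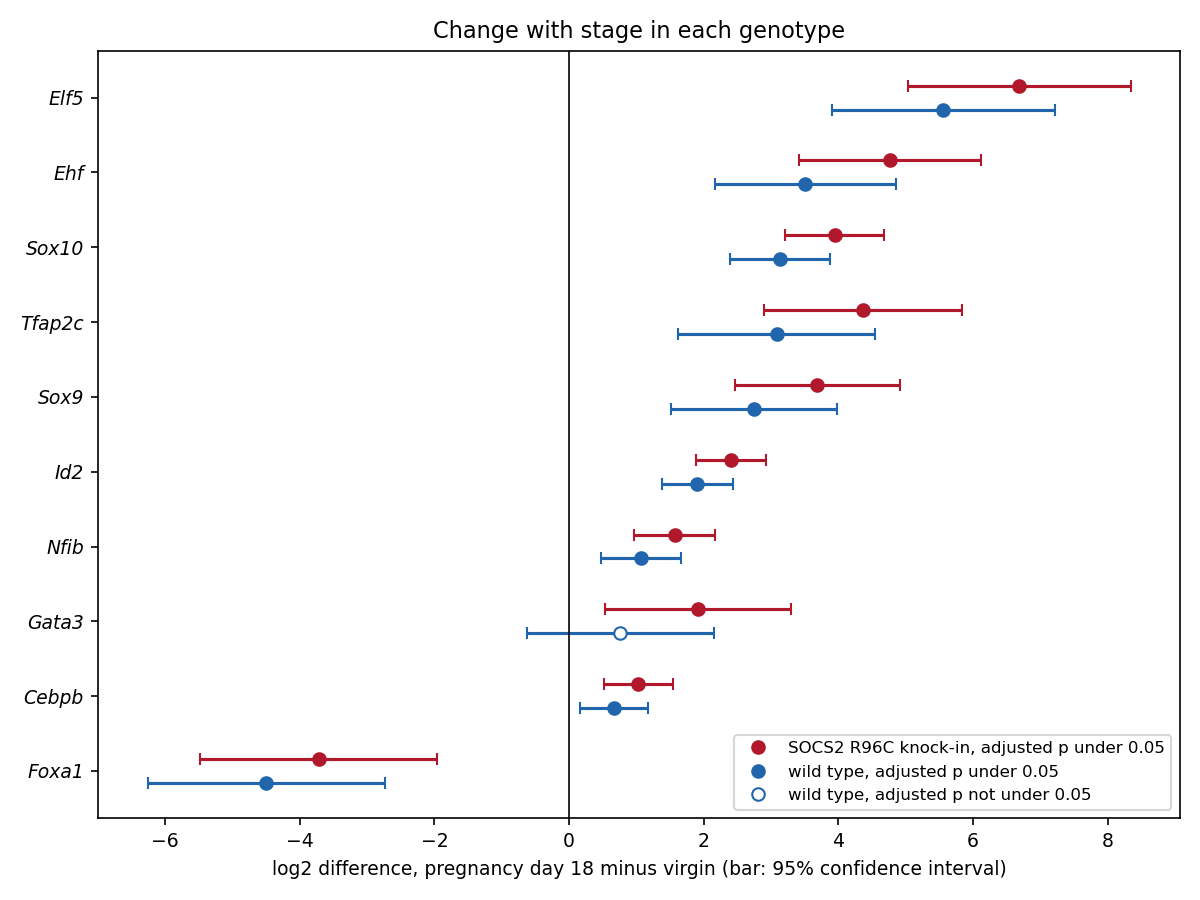
Difference of each regulator between day-18 and virgin glands (horizontal axis, log2; points are limma estimates with 95% intervals, knock-in above wild type in each pair, open where the adjusted p was not under 0.05). Elf5 has the largest difference in both genotypes at 6.69 and 5.56, Foxa1 alone lies below 0, and the intervals of the genotypes overlap for all 10; under scaling to pan-epithelial markers the signs of Cebpb, Nfib and Gata3 turn in both genotypes, and under spike-in scaling those of Cebpb and Gata3 turn in wild-type glands.

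An exact two-sided permutation test over mice gave p = 0.0013, the smallest that 5 against 7 mice allow, for 7 regulators in knock-in glands. The exceptions were Cebpb at 0.0025, Foxa1 at 0.0227 and Gata3 at 0.0341. In wild-type glands it gave 0.0013 for all but Gata3. The plot of the stage differences orders the regulators from Elf5 to Foxa1, and neighbours in that order had overlapping intervals, apart from Foxa1 and the regulator next to it. By group mean, Elf5, Ehf, Tfap2c, Sox10 and Gata3 were ordered as wild type at day 18, knock-in at day 18, wild-type virgins and knock-in virgins, from high to low. Cebpb, Nfib, Id2 and Sox9 had the day-18 groups the other way round, and Foxa1 was highest in wild-type virgins, followed by knock-in virgins, wild type at day 18 and knock-in at day 18. Neighbours of the same stage were not called different for any regulator.

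Within each of the 3 slides every regulator differed in the same direction as over all arrays, in both genotypes. In knock-in glands the slide values ran from 5.46 to 8.87 for Elf5, 4.10 to 6.26 for Ehf, 3.58 to 6.31 for Tfap2c, 3.48 to 4.58 for Sox10, 2.88 to 4.74 for Sox9, 1.57 to 2.93 for Id2, 0.93 to 2.11 for Nfib, 0.70 to 3.47 for Gata3, 0.14 to 1.61 for Cebpb and -5.35 to -1.87 for Foxa1. In wild-type glands they ran from 5.04 to 6.63 for Elf5, 2.82 to 4.70 for Ehf, 2.65 to 3.55 for Tfap2c, 2.76 to 3.85 for Sox10, 2.07 to 3.96 for Sox9, 1.75 to 2.08 for Id2, 0.66 to 1.21 for Nfib, 0.18 to 1.73 for Gata3, 0.35 to 0.98 for Cebpb and -5.26 to -3.98 for Foxa1. The day-18 knock-in group had 1 array on the third slide and the day-18 wild-type group 1 array on the first.

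Between the stages, probes of the same gene went the same way. In a fit over all 35117 probes, 17 of the 18 probes rose and the Foxa1 probe fell in knock-in glands (39.4% of all probes called), and in wild-type glands 16 rose, the Foxa1 probe fell and the Gata3 probe was not called (38.8% of all probes called). The 4 Ehf probes, whose starts span 9659 bp, differed by 4.25 to 5.32 in knock-in and by 3.25 to 3.73 in wild-type glands. The second probes differed by 3.48 and 2.95 for Tfap2c, 1.01 and 0.81 for Nfib, 2.07 and 1.55 for Id2, and 3.03 and 2.52 for Sox9 in knock-in and wild-type glands. The starts of the Nfib probes are 202236 bp apart, so that they can read different transcripts of that gene. The second Elf5 probe, at chr2:103285311-103285370 (mm9), was above background on 2 of 7 virgin arrays in each genotype, so its virgin level is a bound. It was at least 16-fold higher at day 18 in knock-in and at least 19.3-fold higher in wild-type glands. This probe passed the filter only through the day-18 groups, so its calls, counted above, are not independent of the filter. Its knock-in groups overlapped, with virgin mouse 376 at -0.03.

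The scale on which arrays are compared mattered for the smaller differences. Relative to the 75th percentile the median gene differed by 0.04 in knock-in and 0.02 in wild-type glands. Scaling to each array's median moved that to 0.25 and 0.19, scaling to 7 spike-in probes moved it to -0.78 and -0.90, and scaling to the mean of the 10 pan-epithelial markers moved it to -2.29 and -1.09. On the pan-epithelial scale, which sets the regulators against epithelial content, 4 of the 10 rose in each genotype and Foxa1 fell in each. Of all 22382 genes, 239 were called higher and 17955 lower in knock-in glands on that scale. In wild-type glands 444 were called higher. The direction of Foxa1 in knock-in glands was thus shared by most genes on that scale, but its size was not: Foxa1 stood at -6.06 and the median gene at -2.29. Elf5 was higher by 4.36 in knock-in and 4.46 in wild-type glands on that scale, Ehf by 2.44 and 2.41, Tfap2c by 2.03 and 1.99, Sox10 by 1.61 and 2.03, and Foxa1 stood at -6.06 and -5.60. Cebpb, Nfib and Gata3 had the opposite sign on that scale in both genotypes, none of them called there. On the spike-in scale Cebpb turned to -0.25 in wild-type glands (adjusted p = 0.357), and Gata3, not called on either scale, turned to -0.16 (adjusted p = 0.841) there.

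**Figure D3:**
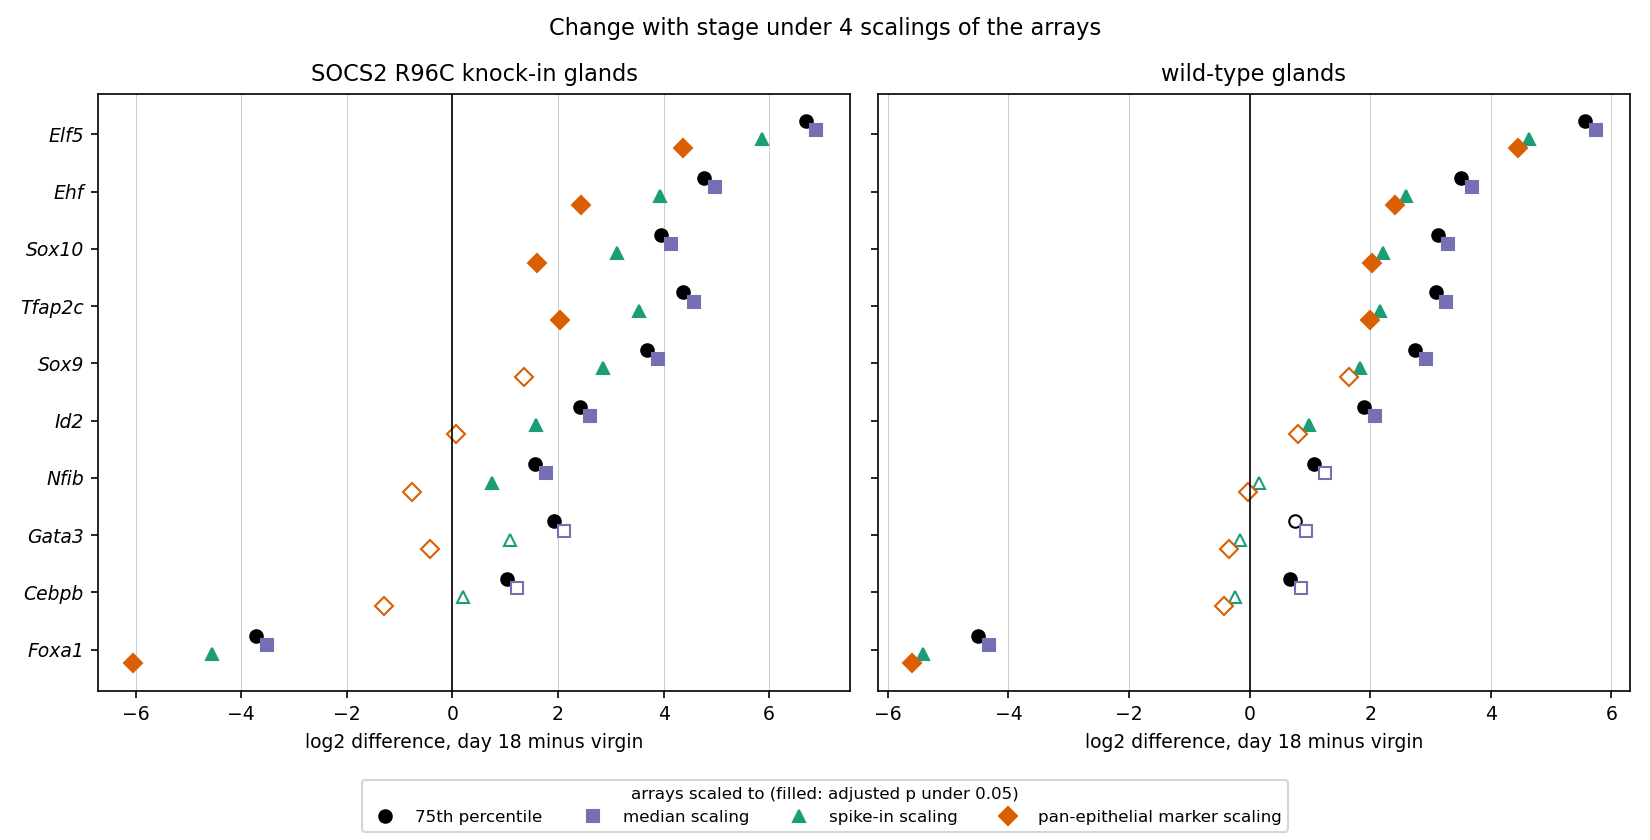
Difference of each regulator between day-18 and virgin glands (horizontal axis, log2) under 4 ways of scaling the arrays, shown by symbol and filled where the adjusted p was under 0.05, knock-in in the left panel and wild type in the right. Elf5, Ehf, Tfap2c and Sox10 stay above 0 and Foxa1 below 0 under all 4 scalings, while Cebpb, Nfib and Gata3 lie below 0 on the pan-epithelial scale in both genotypes, and Cebpb and Gata3 also on the spike-in scale in wild-type glands.

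In the plot of the 4 scalings Id2 and Sox9 kept a positive sign on the pan-epithelial scale, at 0.07 and 1.35 in knock-in and 0.80 and 1.65 in wild-type glands, without being called there. The pan-epithelial list itself, keratins, claudins and adhesion genes, had 5 of 10 genes higher and 0 lower in knock-in and 4 higher and 0 lower in wild-type glands, with Cldn7 at 4.17 and 2.79 and the splicing regulator Esrp1 at 4.00 and 3.33. It is the ruler of that scale and was itself spread over virgins: its mean level was 3.11 to 3.69 in day-18 knock-in and 2.78 to 3.39 in day-18 wild-type glands, against -3.51 to 2.26 in virgin knock-in and 0.51 to 2.85 in virgin wild-type glands.

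The second comparison asked whether the R96C knock-in changed the regulators at either stage. At day 18 none of the 10 was called, with 0% of all genes called. Their differences between knock-in and wild-type glands ran from -0.39 for Foxa1 to 0.43 for Sox9, each with an adjusted p of 1.000. The groups overlapped for all 10 (1.30% of all genes did not overlap), and exact permutation p-values over mice ran from 0.2857 to 0.9841. No regulator had an unadjusted p under 0.05, as 437 of all genes (1.95%) did. The interval for Elf5, whose difference was -0.12, reached from -1.90 to 1.66. It rests on a spread shared by the 4 groups, and the SD of Elf5 was 2.44 in virgin knock-in glands. Within the day-18 groups the SD was 0.37 in knock-in and 0.36 in wild-type glands. At the second Elf5 probe the day-18 genotype difference was 0.70, not called.

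In virgins all 10 regulators were lower in knock-in than in wild-type glands at their brightest probes, and none was called, with 0% of all genes called. The second probes of Elf5 and Nfib went the other way, at 0.40 and 0.27, and were not called. At the brightest probes the differences were -1.25 for Elf5, -1.26 for Ehf, -1.28 for Tfap2c, -0.28 for Cebpb, -0.26 for Nfib, -0.32 for Id2, -0.51 for Sox9, -0.86 for Sox10, -1.23 for Gata3 and -1.17 for Foxa1, with adjusted p-values of 0.711 to 0.719. Before adjustment, 2 regulators were below 0.05 in the limma fit over all 24 arrays, Sox10 at 0.015 (95% interval -1.53 to -0.18) and Ehf at 0.044 (-2.49 to -0.03), as were 803 of all genes (3.59%). Exact permutation p-values over the 14 virgins ran from 0.0688 to 0.5997, and the groups overlapped for all 10 (0.0134% of all genes did not overlap). Mouse 198 was the lowest of the 14 virgins for 7 regulators and mouse 376 for Cebpb, Nfib and Id2. Without mouse 198 the differences ran from -0.60 to 0.00. Without mice 376, 198 and the day-18 knock-in mouse 184 they ran from -0.55 to 0.20, with 8 of 10 negative and an adjusted p of 1.000 for each; Elf5 was then at -0.17, Gata3 at -0.17, Sox10 at -0.31 and Foxa1 at 0.20.

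The signed stage difference of knock-in minus that of wild-type glands ran from 0.36 for Cebpb to 1.28 for Tfap2c, so that increases were larger and the decrease of Foxa1 smaller in knock-in glands, and this difference of differences was not called for any regulator (limma interaction, adjusted p = 1.000 for each). Without the same 3 mice it ran from -0.49 to 0.75. Averaged over both stages the genotype differences ran from -0.78 to -0.01 and none was called (adjusted p = 0.654 to 0.986).

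Across the 14 virgins, the levels of 7 regulators had an r of 0.84 or more with the pan-epithelial markers, and those of Cebpb, Nfib and Id2 an r of 0.28 or less. The level of Elf5 correlated with the mean level of the 10 pan-epithelial markers with r = 0.99, Gata3 with 0.97, Tfap2c with 0.96, Ehf with 0.93, Sox9 with 0.91, Foxa1 with 0.91 and Sox10 with 0.84, whereas Id2 gave 0.28, Nfib 0.11 and Cebpb 0.10. Spearman's rho was 0.89 for Elf5, 0.96 for Gata3, 0.91 for Tfap2c, 0.85 for Ehf, 0.68 for Sox9, 0.58 for Foxa1, 0.92 for Sox10, 0.38 for Id2, 0.11 for Nfib and 0.25 for Cebpb. Without mice 198 and 376, over 12 virgins, r was 0.89 for Elf5, 0.96 for Gata3, 0.62 for Tfap2c, 0.67 for Ehf, 0.74 for Sox9, 0.90 for Sox10 and 0.42 for Foxa1, and rho was 0.82, 0.95, 0.88, 0.83, 0.66, 0.87 and 0.35 for these genes in the same order. The r of Foxa1 thus rested largely on those 2 mice. The points share their array and its scaling, and these values are a description. Skeletal muscle RNA varied among the same glands: the mean level of 8 muscle markers ran between -4.64 and 5.93 in day-18 knock-in and between -4.98 and 0.42 in day-18 wild-type glands, against -2.27 and 7.44 in virgin knock-in and -4.54 and 6.77 in virgin wild-type glands. Each of the 8 muscle markers was above background on some array of each group, but Ckm, Myh1 and Actn3 on only 1 of 5 day-18 wild-type arrays. The lowest of these means thus lie near background. None of the 8 was called in either stage comparison (median differences -0.16 and -2.26), and their part in the virgin values was not tested.

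**Figure D4:**
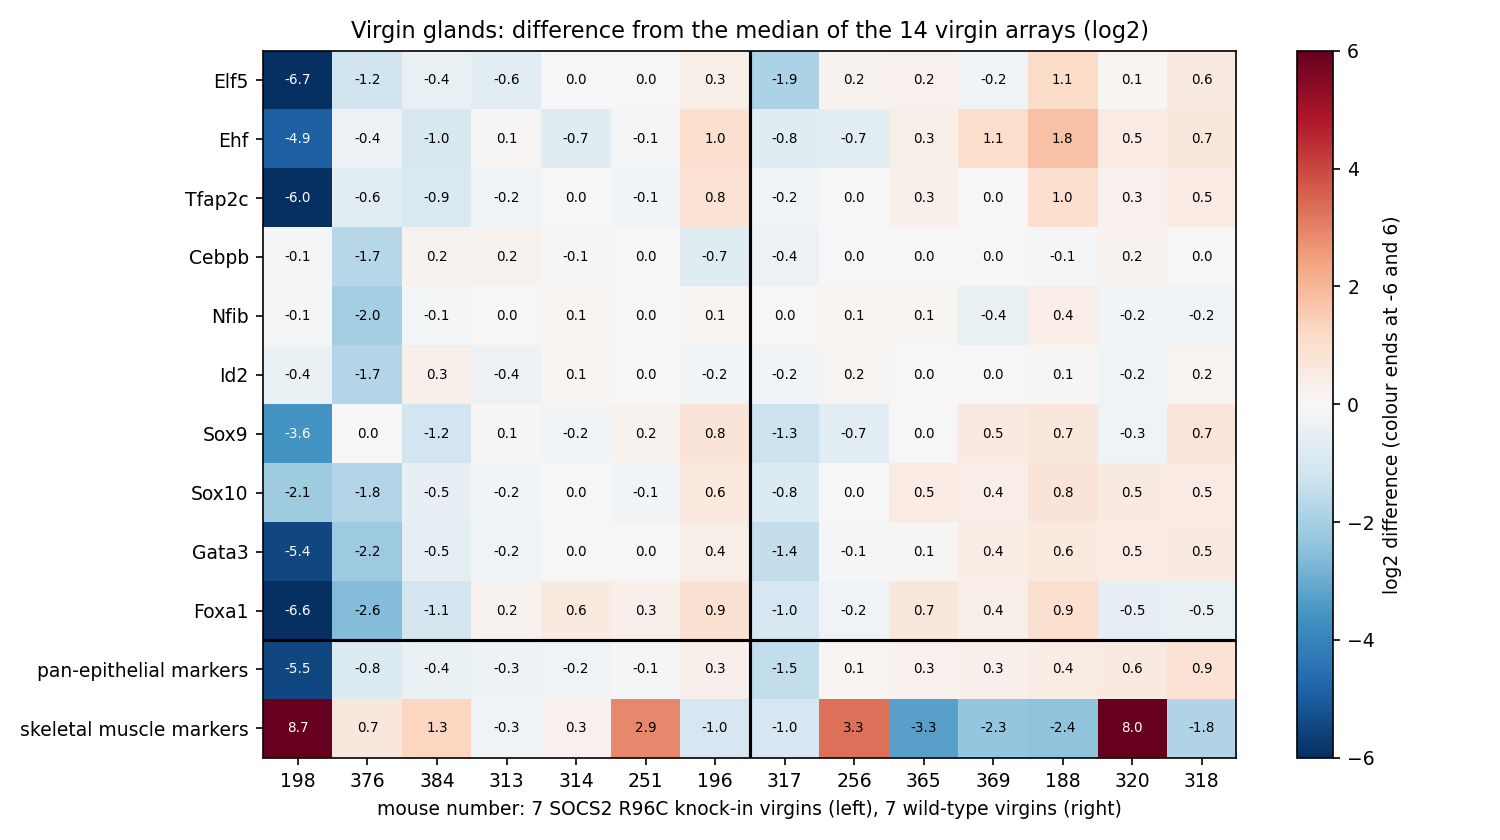
Heat map of the 10 regulators and of the mean pan-epithelial and skeletal muscle markers in the 14 virgin mice, as the log2 difference of each mouse from the median of the 14 (1 row a regulator or list, 1 column a mouse), with the 7 knock-in mice left of the 7 wild-type mice and mice ordered within a genotype by the mean level of the pan-epithelial markers. Mouse 198 is lowest for 7 regulators and mouse 376 for Cebpb, Nfib and Id2.

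The heat map of the virgins shows that the lowest values of Elf5, Ehf, Tfap2c, Sox9, Sox10, Gata3 and Foxa1 all came from mouse 198. Wild-type virgin mouse 317, with the lowest pan-epithelial level of its group at 0.51, also had the lowest level of its group for every regulator other than Nfib and Id2.

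The members' nearest relatives did not share their direction as a group. Of 27 paralogues tested of 31 listed, 5 rose and 11 fell in knock-in and 4 rose and 11 fell in wild-type glands, with medians of -0.09 and -0.24. In the AP-2 family Tfap2a rose with Tfap2c, by 3.26 (adjusted p = 3.71e-04) and 2.12 (adjusted p = 0.013). Tfap2e was above background on 4 of 5 day-18 and 1 of 7 virgin knock-in arrays, and was at least 1.55-fold higher at day 18 there. It passed the filter on dim probes only through the day-18 knock-in group. Its call, among the 5 that rose, is therefore not independent of the filter and is no support. In wild-type glands Tfap2e was above background on 1 of 5 day-18 and no virgin array, so no fold is given. In the C/EBP family, Cebpd rose by 1.86 and 1.55 beside Cebpb, while Cebpe fell by 3.23 and by 2.71 and the adipocyte regulator Cebpa fell by 2.17 and by 1.87. In the GATA family, Gata6 fell by 2.93 and by 2.55 and Gata2 fell by 1.83 and by 1.48, while Gata3 rose in knock-in glands and was not called in wild-type glands. Gata5 was called higher in both genotypes, so the GATA relatives went both ways. Id1 fell by 1.67 and by 1.34 and Id3 fell by 2.10 and by 1.88, opposite to Id2. Nfia fell by 0.86 and by 0.87, opposite to Nfib, and Elf4 fell by 1.13 and by 1.26, opposite to Elf5. Cebpa, Id1, Id3, Nfia, Gata2 and Elf4 were picked for mention after their values were seen. In the SOX family Sox4 was called higher in knock-in glands, as Sox9 and Sox10 were. On the pan-epithelial scale the signs of Cebpd, Sox4 and Gata5 turned in knock-in glands and that of Gata5 in wild-type glands. Under spike-in scaling the sign of Gata5 turned in both genotypes as well.

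**Figure D5:**
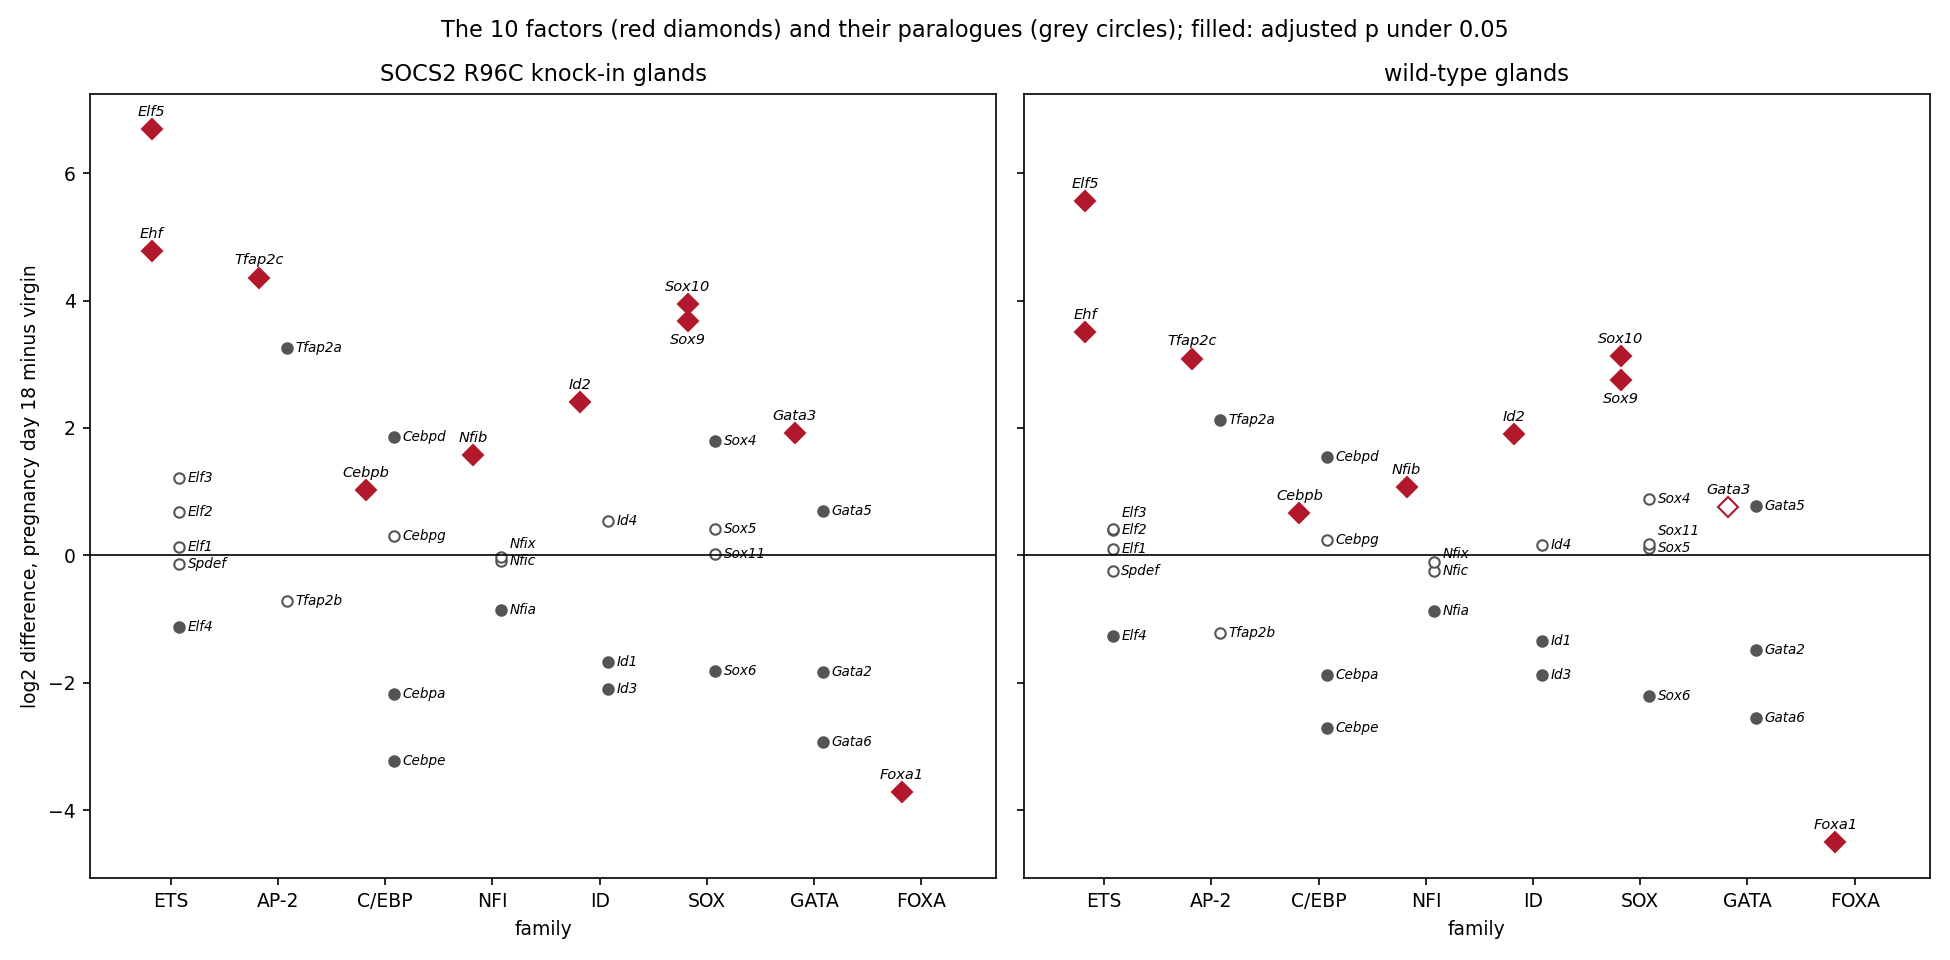
Difference between day-18 and virgin glands (vertical axis, log2) of the members (red diamonds) and their tested paralogues (grey circles), filled where the adjusted p was under 0.05 and grouped by gene family along the horizontal axis, knock-in in the left panel and wild type in the right; paralogues known in a genotype by a bound alone are left out there. Elf5, Ehf, Nfib, Id2 and Gata3 lie above paralogues of their families that fell, among them Elf4, Nfia, Id1, Id3, Gata2 and Gata6, and the forkhead column holds Foxa1 alone. Paralogues that rose include Gata5 in both genotypes and Sox4 in knock-in glands. The sign of Gata5 turned on the pan-epithelial and spike-in scales in both genotypes, and that of Sox4 on the pan-epithelial scale. On the pan-epithelial scale Nfib, Cebpb and Gata3 have the opposite sign, and on the spike-in scale Cebpb and Gata3 do in wild-type glands.

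The plot by family shows Sox9 and Sox10 apart from Sox6, which fell by 1.82 (adjusted p = 8.12e-04) and by 2.21 (adjusted p = 1.20e-04). Sox8, the remaining SoxE gene, was above background on 1 of 5 day-18 arrays in each genotype. It passed the filter on dim probes only through wild-type virgins, so its calls are not independent of the filter. Sox8 was at least 1.62-fold lower in day-18 than in virgin wild-type glands, and no bound could be set in knock-in glands. Its sign turned under normexp background correction in both genotypes. Sox6 and Sox8 were picked for mention after their values were seen.

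Other transcription regulators of the mammary epithelium moved both ways. Of 29 tested of 30 listed, 9 rose and 11 fell in knock-in and 9 rose and 10 fell in wild-type glands, with medians of 0.01 and -0.10. The transcriptional coactivator Cited4 rose by 5.00 and 4.59, and Cited1, its relative linked to hormone-sensing cells, fell by 3.95 in knock-in glands. Irx1 rose by 4.07 in knock-in and Bcl11a, a luminal progenitor factor, rose by 3.95 in wild-type glands. Myb, a hormone-sensing marker, fell by 2.62 and by 3.43, and Msx2 fell by 3.02 in wild-type glands. On the pan-epithelial scale 3 of these calls turned sign in knock-in glands (Grhl2, Tcf7l2 and Trp63) and 2 in wild-type glands (Lmo4 and Trp63).

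The marker lists of the lineages moved beside their regulators. Of 14 luminal progenitor and alveolar markers tested of 15 listed, 12 rose and 0 fell in each genotype, with medians of 5.75 and 4.65. The milk gene Wap rose by 13.36 in knock-in glands, where Csn1s1, above background on 3 of 7 virgin arrays, was at least 6900-fold higher at day 18, and Olah, which releases the medium-chain fatty acids of milk, and Wap rose by 11.33 and 10.02 in wild-type glands. Their mean level was 5.55 to 6.12 in day-18 knock-in and 5.57 to 6.02 in day-18 wild-type glands, against -2.36 to 0.37 in virgin knock-in and -0.89 to 2.39 in virgin wild-type glands. Hormone-sensing markers went with Foxa1: of 9 tested of 11 listed, 0 rose and 6 fell in knock-in and 0 rose and 7 fell in wild-type glands, with medians of -1.97 and -2.48. The EGF-receptor ligand Areg fell by 3.33 in knock-in glands (adjusted p = 0.0055) and was at least 134-fold lower in day-18 than in virgin wild-type glands (adjusted p = 1.50e-07), where it was above background on 1 of 5 day-18 arrays. Sytl2 fell by 2.81 in knock-in glands, and Prom1 was at least 5.23-fold lower in day-18 than in virgin wild-type glands. Prom1 passed the filter on dim probes only through the virgin groups, so its call is not independent of the filter. The oestrogen receptor gene Esr1 fell by 1.94 and by 2.13 and the progesterone receptor gene Pgr fell by 2.11 and by 3.27; both were picked for mention after their values were seen. Hormone-sensing markers had a mean level of -1.82 to -0.86 in day-18 knock-in and -2.18 to -1.67 in day-18 wild-type glands, against -1.11 to 1.22 in virgin knock-in and 0.10 to 1.94 in virgin wild-type glands. No call in these lists changed sign under any scaling.

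Of 11 basal and myoepithelial markers, 10 rose and 0 fell in knock-in and 6 rose and 0 fell in wild-type glands, with medians of 2.10 and 1.60. The contractile genes Cnn1 and Acta2 rose by 2.94 and 2.66 in knock-in glands, and Cnn1 and Myh11 rose by 2.74 and 2.56 in wild-type glands. On the pan-epithelial scale 6 of the 10 knock-in calls and 0 of the 6 wild-type calls had the opposite sign. None of the 11 markers was called on that scale in either genotype, with medians of -0.23 in knock-in and 0.50 in wild-type glands. Sox10, which basal and progenitor cells express, was higher there by 1.61 in knock-in and 2.03 in wild-type glands. Basal and myoepithelial markers had a mean level of 3.32 to 3.69 in day-18 knock-in and 3.68 to 3.83 in day-18 wild-type glands, against -0.61 to 2.60 in virgin knock-in and 0.91 to 2.60 in virgin wild-type glands.

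Markers of the other tissues of the fat pad fell or were not called for the most part. White adipocyte markers had 0 of 10 higher in each genotype, with 7 lower in knock-in and 6 lower in wild-type glands, among them Plin1, which coats fat droplets and fell by 2.92 and by 2.64, the adipokine Adipoq, which fell by 2.26 in knock-in, and the lipase Lipe, which fell by 2.08 in wild-type glands. All 8 fibroblast markers fell in each genotype, with medians of -1.47 and -1.51, led by the matrix genes Dpt and Lum. Of 6 endothelial markers, 0 rose and 4 fell in knock-in and 3 fell in wild-type glands, among them Tek and Vwf. Of 5 skin and hair follicle markers tested of 8 listed, Sbsn rose by 1.43 in knock-in and 1.27 in wild-type glands and Lor rose by 1.37 in wild-type glands, and 0 fell; the sign of Sbsn turned on the pan-epithelial scale in knock-in glands. None of these lists, nor any other list named here, held a called gene in a genotype comparison. Adipocyte markers had a mean level of 2.66 to 3.99 in day-18 knock-in and 3.75 to 4.13 in day-18 wild-type glands, against 3.37 to 5.38 in virgin knock-in and 4.91 to 5.21 in virgin wild-type glands, and their part in the differences of the regulators was not tested.

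Over all 24 arrays, Elf5, Ehf and Tfap2c correlated with each other with r between 0.97 and 0.98 and with Sox9 and Sox10 with r between 0.93 and 0.97, while Foxa1 correlated with the members other than Gata3 with r between -0.66 and -0.35, and with Gata3 with r = 0.11. The genes most like Elf5 were Plet1 (r = 0.995), Smim22 (0.992) and Spint2 (0.991), and those most like Ehf were Rnf43 (0.986), Tjp3 (0.983) and Klc3 (0.982). Tfap2c was most like Dsg2 (0.990), a desmosomal cadherin, Cgn (0.986), a tight-junction protein, and BC021767 (0.984). Sox10 was most like Trim46 (0.992), Cracr2b (0.991) and Map7 (0.991), and Sox9 was most like Phldb3 (0.967), Rnf43 (0.964) and Marveld2 (0.963). Gata3 was most like Lad1 (0.980) and the keratins Krt18 (0.975) and Krt14 (0.960), of a luminal and a basal kind, and Foxa1 was most like Tspan1 (0.974), Ttc6 (0.973) and Wfdc2 (0.963). Cebpb was most like Irf3 (0.970), Farsa (0.961) and Polr3e (0.960), Nfib was most like Tada2a (0.968), Gpr35 (0.967) and Tcf7l2 (0.967), and Id2 was most like Osbpl7 (0.980), Mfsd6 (0.980) and Hs6st1 (0.979). These correlations are a description over arrays that share 2 stages and the low arrays named above.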

How the data were processed

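Total RNA of each gland was labelled with Cy3 and hybridised to a 1-colour Agilent array, and spot signals were extracted with Agilent Feature Extraction 12.0.3.2, per the submitters' processing notes. The deposited scanner files hold spot intensity values, and per the file headers the processed signal used here is background-corrected by that software. The deposited series matrix holds the log10 of the same processed signal (lowest r over arrays 0.99999, largest difference 0.005), and served as an alternative.

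For this report, the log2 of the processed signal was set against the 75th percentile of the non-control spots of its array, in the order log2, then scale. Spots flagged as non-uniform or as population outliers were set to missing before scaling. Probes were kept if 80% or more of the mice of any 1 group showed them well above background, and each gene was represented by the probe with the highest mean. Group means of all 24 arrays were fitted with limma 3.58.1 (R 4.3.3) and moderated by empirical Bayes, with Benjamini-Hochberg adjustment over all 22382 genes and a threshold of 0.05. The 6 comparisons were stage in each genotype, genotype at each stage, their difference and their average. Single genes were also tested with exact two-sided permutations of mice. Where fewer than 50% of the mice of a group showed a probe above background, its level there is only a bound, set by the lowest signal among probes above background on each array. The fit was tested on simulated data with independent normal noise. Those data held no outlying arrays such as those of mice 198 and 376 and no spread that differed between groups, so the test does not cover these features. The number of arrays limits the precision, and separate mice are the replicates.

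The regulators and the lists (paralogues, other regulators, luminal progenitor and alveolar, hormone-sensing, basal, pan-epithelial, adipocyte, fibroblast, Schwann cell, T cell, macrophage, muscle, skin and endothelial markers) were chosen with earlier results of these data known, so none of their patterns is independent support. Named were all members, from each list the 2 called genes with the largest difference in each direction, Socs2 and the 3 genes most correlated with each member. Some genes whose sign turned under another scaling were named too, after their values were seen, and other genes are marked where they appear. A gene that this rule names is not reported here. Alternatives covered background correction (normexp, offset 50), quantile, median, spike-in and pan-epithelial scaling, filters, the probe of a gene, slide as a block, array weights, left-out mice and 2-group fits. Probe positions are those of the files (mm9). Promoters are RefSeq's (GRCm38.p6).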

Additional observations from a re-analysis of the deposited data

Results flagged for a closer look

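In 72 groups of 5 or 7 mice (18 probes in 4 groups), 13 had a lowest or highest mouse whose gap to the nearest other mouse passed Dixon's critical value for its number of mice. Chance alone flags about 1 in 20 independent groups. These groups are not independent, because they reuse the same 24 mice and several probes read the same gene. The count is therefore a description. Of the 13, 5 came from virgin knock-in mouse 198 and 3 from virgin knock-in mouse 376.

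Mouse 198 was lowest among virgin knock-in glands at the main Elf5 probe (-5.94, nearest -0.50), at 3 Ehf probes (-5.50, nearest -1.55; -7.36, nearest -3.32; -7.37, nearest -2.25) and at the main Tfap2c probe (-5.90, nearest -0.75). Its pan-epithelial level of -3.51 was the lowest of all mice, and its part in these values was not tested. Mouse 376, whose negative-control signal was the highest of all arrays, was lowest at the main probes of Nfib (1.70, nearest 3.58) and Id2 (-0.79, nearest 0.57) and highest at the second Elf5 probe (-0.03, nearest -4.85).

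Wild-type virgin mouse 317 was lowest of its group at both Elf5 probes (-1.20, nearest 0.54, and -7.92, nearest -6.31), at a Sox9 probe (-4.58, nearest -3.13) and at the Gata3 probe (2.87, nearest 4.20). Wild-type day-18 mouse 233 was lowest of its group at 1 Ehf probe (-0.01, nearest 1.20).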

How the results depend on the processing

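Over all alternatives, 363 of 377 values of the stage comparison in knock-in glands and 362 of 377 in wild-type glands kept their side of the threshold, and called ones their direction. No member was called in any of the 377, 377, 367 and 367 values of the 4 genotype comparisons, in which some uncalled differences changed sign, such as Cebpb in virgins (-0.68 to 0.89). Signs of called values turned under spike-in scaling for Cebpb in wild-type glands (-0.25) and under pan-epithelial scaling for Cebpb (-1.30 in knock-in, -0.43 in wild-type glands), Nfib (-0.76 and -0.03) and Gata3 (-0.42 in knock-in glands), where 4 regulators were higher in each genotype. With probes above background on all arrays, 7 of the 10 could be tested and 5 were higher in wild-type glands. Leaving out each mouse in turn gave 8 to 9 higher regulators in knock-in and 7 to 8 in wild-type glands, 1 lower in each, and 0 in the genotype comparisons. Gata3 in knock-in glands passed 0.05 by little: its adjusted p was 0.081 after quantile normalisation, 0.052 with median scaling, 0.156 with spike-in scaling, 0.054 with array weights, 0.109 in a fit of the 2 groups alone, and 0.056 and 0.055 without mice 210 and 239. In wild-type glands it was 0.021 without mice 376, 198 and 184 and 0.043 in a fit of the 2 groups. Cebpb in wild-type glands had an adjusted p of 0.290 with median scaling, 0.063 with no filter, and 0.060, 0.061, 0.058 and 0.083 without mice 317, 234, 233 and 206. Median scaling also gave 0.106 for Cebpb in knock-in and 0.128 for Nfib in wild-type glands. The cause was not tested. Calls over all genes (5061 higher and 4577 lower in knock-in, 4709 and 4658 in wild-type glands) became 2694 and 2367, and 2839 and 2482, with median scaling, 1371 and 11657, and 1143 and 13657, with spike-ins, and 239 and 17955 in knock-in glands and 444 higher in wild-type glands on the pan-epithelial scale. Array weights gave 7342 higher calls in wild-type glands, and 10 higher and 14 lower between virgin genotypes. The series matrix values, an alternative chosen after seeing the data, changed no call of the members. No paired analysis was possible because the mouse numbers in the labels all differ between groups. Probes near background, such as the second Elf5 probe in virgins, give bounds only.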
